A study of Rattus norvegicus with 10 samples.

Results

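The SNARE proteins that fuse insulin granules with the plasma membrane, their regulators, and the Rab GTPases and granule proteins that bring granules to the membrane were followed in rat β-cells after silencing of Scrt1, a zinc-finger transcriptional repressor. The 46 genes were taken by symbol from a list of 5 roles: 9 SNAREs, 13 genes of SNARE regulation and priming, 16 Rabs and their effectors, 6 granule proteins and 2 subunits of the exocyst. Of these, 44 were among the 23918 genes of the deposited table and 41 passed the filter on low values that left 12941 genes for testing. Snap23 and Tmem27 had no row under those symbols, so no value is given for them. Doc2b, Rab27b and Mlph, with at most 23, 13 and 15 reads in any library, were under the filter.

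Islets came from adult Sprague-Dawley rats, and β-cells were sorted from them by their autofluorescence and plated on extracellular matrix. In both groups the cells were transfected with Lipofectamine, either with a negative control siRNA (siCtrl, libraries 1 to 5) or with a pool of 4 siRNAs against Scrt1 (siScrt1, libraries A to E), and RNA was taken 48 h later. The comparison therefore asked what loss of Scrt1 changed in transfected, cultured β-cells, with no untransfected group used here. The labels do not say how many rats each library came from, so p-values measure the spread between these libraries, which may in part be technical.

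Each library held between 11901342 and 17444034 reads assigned to transcripts. Scrt1 fell from 14.1 ± 2.61 CPM (counts scaled to the library total; SD, n = 5) in siCtrl to 3.58 ± 1.63 (n = 5) in siScrt1, with no overlap (exact two-sided permutation p = 0.00794; log2 fold change -2.06, SE 0.308, limma adjusted p = 0.00618). The call was lost when both libraries that carry the number 4 in the deposited table were left out (adjusted p = 0.0621). The lowest Scrt1 values, 30.5 and 22.8 scaled counts, were in siScrt1 D and E. The label of β-cells was borne out by 11 of 12 listed β-cell markers in the table, which summed to 106220 to 169364 CPM in siCtrl and 107646 to 154116 in siScrt1. The 7 α-cell markers summed to 4341 to 6255 CPM over all libraries, with Gcg at 206 to 579 CPM against 48617 to 82005 for Ins1. The 10 neuronal and glial markers, a class of cells that shares much of the exocytosis machinery, summed to 141 to 193 CPM in siCtrl and 145 to 188 in siScrt1, with Sox10 and Gfap at 0. Over all libraries the sums were 18.7 to 90.2 CPM for δ- and PP-cell markers, 188 to 267 for duct, 2.92 to 4.38 for endothelial, 3.83 to 32.1 for mesenchymal (highest in siCtrl 4 and siScrt1 D) and 1.75 to 2.70 for immune markers, with Cd3e at 0, and for each list the groups overlapped. In bulk RNA, fewer cells of a type and less RNA per cell cannot be told apart.

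Regulated exocytosis in β-cells rests on a complex of SNARE proteins: a vesicle SNARE on the granule winds together with syntaxin and SNAP proteins on the plasma membrane and pulls both membranes into contact. Munc18, Munc13 and CAPS proteins assemble and prime this complex, and complexins hold it until calcium enters. Nsf, with its adaptors encoded by Napa and Napb, takes it apart after fusion. Before that, Rab3 and Rab27 on the granule bind effectors that carry it along actin, tether it and dock it, and the exocyst tethers vesicles at the membrane.

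In the fit by group alone, no SNARE, priming factor, Rab, effector, granule protein or exocyst gene on the list was called after Scrt1 silencing. Rab3d came closest, and a fit with the library number as a block called Rab3d and Nsf. None of the 41 tested members passed the threshold (0 at adjusted p under 0.05 in limma, Benjamini-Hochberg adjustment over all 12941 genes), beside 1.05% of all genes, and limma-voom on recovered reads also called 0. At an unadjusted p under 0.05 there were 5 members, 12.2% of those tested, beside 11.1% of all genes: Rab3d, Napb, Exph5 and Stxbp5 were lower in siScrt1, 4 of 41 beside 5.75% of all genes, and Cplx2 was higher. Log2 fold changes of siScrt1 over siCtrl ran from -0.49 to 0.37 with a median of 0.013, beside a median of 0.0035 over all genes, and 21 were positive and 20 negative. The 95% interval of the difference lay within 0.5 log2 units on either side of 0 for 34 members and within 1 unit, a 2-fold change, for all 41. These intervals bound the differences and do not show that the levels were equal.

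With the number of each library in the deposited table as a block, Rab3d and Nsf were called, 2 of 41 members, beside 2.00% of all genes. For 2 of 41 members the libraries of 1 group all lay to 1 side of the other, beside 3.51% of all genes: Rab3d, which was lower, beside 2.03% lower in all, and Cplx2, which was higher, beside 1.48%. In 8 of 41 members, siScrt1 was lower than the same-numbered siCtrl library in all 5 pairs, beside 9.00% of all genes. These were Stx3, Nsf, Napb, Rab3d, Sytl4, Exph5, Scg3 and Exoc6. In 4 of 41 members, Cplx2, Cadps, Cadps2 and Pclo, siScrt1 was higher in all 5 pairs, beside 8.01% of all genes. Over all genes, 17.0% moved in 1 direction in all 5 pairs.

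**Figure D1:**
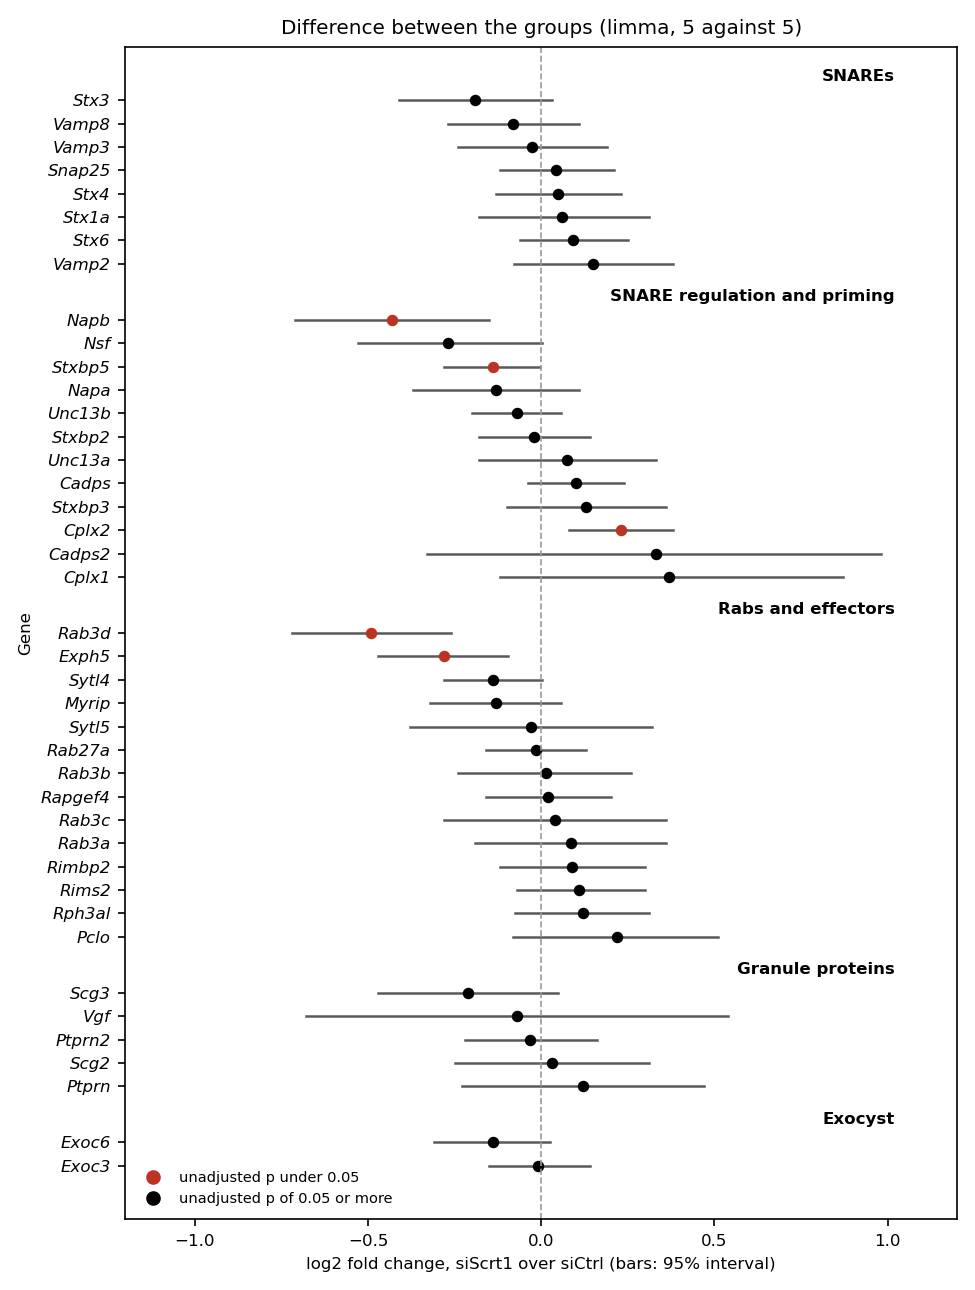
Log2 fold change of siScrt1 over siCtrl (x axis) for the 41 tested genes, grouped by role and ordered by value, with bars for the 95% interval from limma (5 libraries against 5) and red points for an unadjusted p under 0.05. The 5 red points are Rab3d, Napb, Exph5, Stxbp5 and Cplx2, and the widest intervals belong to Cadps2 and Vgf.

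Levels of the 44 genes spanned a wide range in these cells. Set per length as TPM, a transcript's share of the library corrected for its length and scaled between libraries by the authors, 8 genes lay over 100, 24 from 10 to 100, 8 from 1 to 10 and 4 under 1. The secretogranins Scg2, at 3290 ± 275 TPM in siCtrl and 3370 ± 342 in siScrt1 (n = 5 each), and Scg3, at 929 ± 121 and 806 ± 110, stood highest. Next came Ptprn, Vamp8, Snap25, Sytl4 and Ptprn2, and Vamp2 was at 118 ± 6.30 TPM in siCtrl. Doc2b, Rab27b and Mlph were at 0.460, 0.394 and 0.113 TPM in siCtrl, and Cplx1 at 0.666. Over the tested members, the coefficient of variation between libraries of a group had a median of 10.7% in siCtrl and 10.2% in siScrt1, lowest for Sytl4 in siCtrl (4.64%) and Stx4 in siScrt1 (2.31%) and highest for Cadps2 in both (32.7% and 50.4%).

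**Figure D2:**
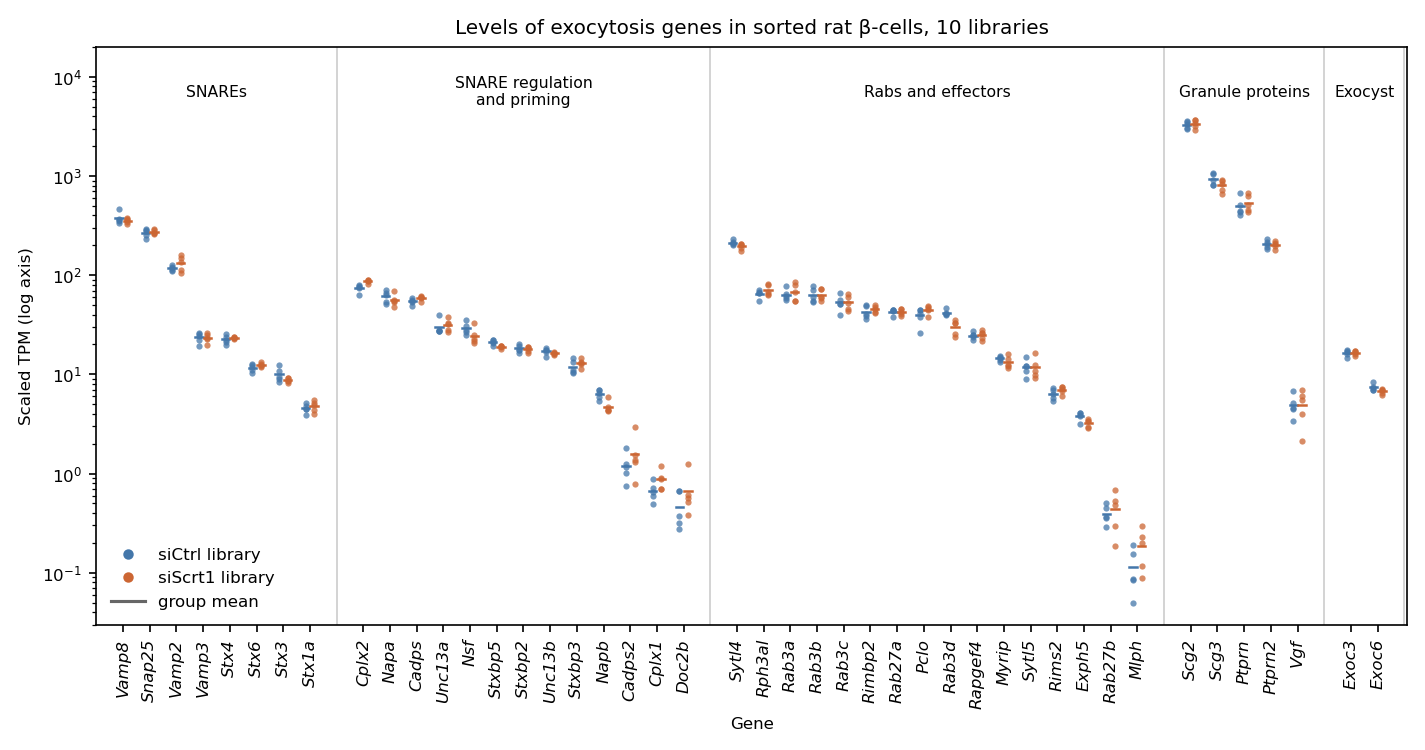
Scaled TPM (log axis) of the 44 genes in each of the 5 siCtrl (blue) and 5 siScrt1 (orange) libraries, grouped by role, with a short line at each group mean. Scg2 lies at 2900 to 3710 TPM, Mlph lies under 1, and for most genes the points of both groups overlap.

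Among the SNAREs, no gene was called and none reached an unadjusted p under 0.05, and the 8 log2 fold changes had a median of 0.046 (-0.19 to 0.15). Snap25, the plasma membrane SNARE that supplies a pair of the helices of the complex, had 4842, 5840, 5857, 5154 and 6059 scaled counts in siCtrl 1 to 5 and 5541, 5525, 6295, 5335 and 5820 in siScrt1 A to E (log2 fold change 0.042, 95% interval -0.12 to 0.21). Vamp2, the vesicle SNARE of insulin granules, had 3866, 3652, 4036, 3498 and 3796 in siCtrl and 4348, 4750, 5108, 3591 and 3363 in siScrt1 (0.15, interval -0.080 to 0.38, limma adjusted p = 0.641). For Vamp2, siScrt1 A, B and C lay above every control, while D lay within the control range and E below it. The difference was 0.078 without siScrt1 C, 0.10 without B and 0.23 without E.

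The other vesicle SNAREs showed no such split. Vamp3, a vesicle SNARE of recycling endosomes, had 477, 649, 599, 543 and 631 scaled counts in siCtrl and 480, 567, 552, 608 and 635 in siScrt1. Vamp8, an endosomal and granule SNARE, had 568, 550, 765, 580 and 603 in siCtrl and 606, 599, 558, 533 and 586 in siScrt1 (log2 fold change -0.081, interval -0.27 to 0.11). Only siCtrl 3 stood apart for Vamp8, and without it the difference was 0.0018. On the TPM scale Vamp8 exceeded Vamp2 by a median of 2.93 times, but its transcript model is 300 nt long, and in reads per kb of that model the ratio was 1.08, so the order of these levels depends on the model and its effective length.

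The syntaxins of the plasma membrane were ordered Stx4, Stx3, Stx1a by TPM in both groups. Stx4 took 60.6 ± 3.41% of their summed TPM in siCtrl and 63.3 ± 0.816% in siScrt1, Stx3 took 26.9 ± 3.71% and 23.7 ± 1.22%, and Stx1a, the syntaxin of the fast fusing granule pool, 12.4 ± 2.03% and 13.0 ± 1.49%. In scaled counts, Stx4 was at 348, 298, 285, 319 and 264 in siCtrl and 322, 314, 310, 302 and 312 in siScrt1. For Stx1a the values were 142, 122, 154, 142 and 162 in siCtrl and 172, 164, 154, 139 and 126 in siScrt1. Both genes overlapped across the groups.

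Stx3, a syntaxin linked to newly arriving granules, had 426, 602, 405, 519 and 456 scaled counts in siCtrl and 405, 416, 396, 437 and 439 in siScrt1. The siScrt1 values lay close together, toward the lower end of the control range, with C below every control. The difference of -0.19 (interval -0.41 to 0.030) had a limma adjusted p of 0.530, and without siCtrl 2, the highest library, it was -0.10. Stx6, a SNARE of the trans-Golgi network and immature granules, was at 845 ± 77.0 and 898 ± 41.7 scaled counts (0.092, adjusted p = 0.673 in limma).

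The genes that assemble, prime and recycle SNARE complexes had 3 of 12 with an unadjusted p under 0.05, beside 11.1% of all genes. Of the 12 tested, 6 were positive and 6 negative, with a median log2 fold change of 0.027 (-0.43 to 0.37). On the side of disassembly, Napb, the neuronal form of the adaptor that brings Nsf to spent complexes, had 100, 110, 93.9, 83.8 and 109 scaled counts in siCtrl and 92.1, 73.2, 68.5, 68.3 and 67.3 in siScrt1. The siScrt1 libraries B to E lay below every control and A lay within the control range. The difference was -0.43 (SE 0.129, interval -0.71 to -0.15, limma unadjusted p = 0.00584, adjusted p = 0.190), from 64 to 107 reads in a library.

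Nsf, the ATPase that pulls SNARE complexes apart, had 1436, 1603, 2046, 1544 and 1751 scaled counts in siCtrl and 1185, 1300, 1871, 1242 and 1417 in siScrt1. The groups overlapped, but each siScrt1 library was lower than its same-numbered control, by 8.58 to 19.6%. The difference of -0.27 (SE 0.124, interval -0.53 to 0.0030) had an adjusted p of 0.454 in limma without the block and of 0.0386 with it. Napa, the form of the adaptor found in most tissues, made up 90.6 ± 1.10% of the summed TPM of Napa and Napb in siCtrl and 92.2 ± 1.39% in siScrt1. Its scaled counts were 1150, 1365, 1544, 1111 and 1437 in siCtrl and 1150, 1499, 1182, 1019 and 1196 in siScrt1, with overlap and a log2 fold change of -0.13 (interval -0.37 to 0.11).

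Complexins clamp and then help to fire the assembled complex. Cplx2 had 2253, 1855, 2354, 2159 and 2295 scaled counts in siCtrl and 2576, 2645, 2680, 2469 and 2413 in siScrt1. Every siScrt1 library lay above every control, and the mean was 17.1% higher. The log2 fold change was 0.23 (SE 0.0703, interval 0.079 to 0.38, limma unadjusted p = 0.00594, adjusted p = 0.192), which did not pass the threshold. Cplx1, the other complexin on the list, was at 15.4 to 27.6 scaled counts in siCtrl and 21.6 to 37.5 in siScrt1, and Cplx2 made up 99.1 ± 0.177% and 99.0 ± 0.203% of their summed TPM.

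The priming factors Unc13a and Unc13b, the Munc13 proteins that open syntaxin, had log2 fold changes of 0.075 and -0.071. Unc13a had 3210, 2221, 2212, 2243 and 2218 scaled counts in siCtrl and 3043, 2597, 2630, 2261 and 2167 in siScrt1, so siCtrl 1 and siScrt1 A, which share a number, were the highest of their groups. Unc13b had 1662, 1651, 1434, 1721 and 1625 in siCtrl and 1536, 1516, 1561, 1595 and 1481 in siScrt1. Unc13a made up 63.3 ± 3.67% of their summed TPM in siCtrl and 65.7 ± 2.89% in siScrt1, and neither gene differed past the threshold (limma adjusted p = 0.861 and 0.702).

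Cadps and Cadps2 encode the CAPS proteins, which ready granules for release. Cadps had 2820, 2570, 2900, 2947 and 3115 scaled counts in siCtrl and 3038, 2820, 3119, 3178 and 3225 in siScrt1, higher in all 5 pairs by 3.51 to 9.72%, with a limma adjusted p of 0.606. Cadps2 had 126, 86.3, 70.9, 52.1 and 79.8 in siCtrl and 202, 95.1, 105, 54.8 and 90.1 in siScrt1, again highest in siCtrl 1 and siScrt1 A. Its interval was the widest on the list (0.33, -0.33 to 0.98), and it made up 2.15% and 2.61% of the summed TPM of both genes.

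Of the syntaxin-binding proteins, Stxbp5 encodes tomosyn, which occupies syntaxin and restrains fusion. It had 1587, 1765, 1556, 1791 and 1852 scaled counts in siCtrl and 1505, 1447, 1605, 1599 and 1569 in siScrt1, lower in 4 of 5 pairs. The groups overlapped, and the difference was -0.14 (SE 0.0647, limma unadjusted p = 0.0444, adjusted p = 0.431). The Munc18 family members Stxbp2 (565 ± 47.5 and 556 ± 31.6 scaled counts, limma adjusted p = 0.942) and Stxbp3 (448 ± 70.1 and 487 ± 43.8, adjusted p = 0.694) overlapped between the groups. Doc2b, a calcium sensor of fusion, had between 4.60 and 20.7 scaled counts and was not tested.

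The Rabs and effectors held the largest difference on the list. Of the 14 tested, 8 were positive and 6 negative, with a median of 0.016 (-0.49 to 0.22). Rab3d (ENSRNOG00000011582), a GTPase of secretory granules, had 2371, 2351, 2731, 2315 and 2269 scaled counts in siCtrl and 1886, 1915, 2022, 1470 and 1371 in siScrt1. All siScrt1 libraries lay below all controls, and each was 18.5 to 39.6% below its same-numbered control. D and E were the lowest siScrt1 libraries, and the same-numbered siCtrl 4 and 5 were the lowest controls. The mean was 28.0% lower, from 2407 ± 185 to 1733 ± 292 (n = 5 each).

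On the log2 scale the Rab3d difference was -0.49 (SE 0.107, interval -0.72 to -0.26, limma unadjusted p = 0.000551). Its adjusted p over all genes was 0.0513 in limma and 0.0521 in limma-voom, just outside the threshold, and 0.00844 with the library number as a block. Without siScrt1 C the value was -0.55 and the adjusted p 0.0427, and over all alternatives the adjusted p ran from 0.00844 to 0.242. Rab3d is also a known protein of acinar zymogen granules. The 9 acinar markers summed to 2.83 to 5.93 CPM in siCtrl and 3.07 to 5.13 in siScrt1, 7 of them under 1 CPM on average.

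**Figure D3:**
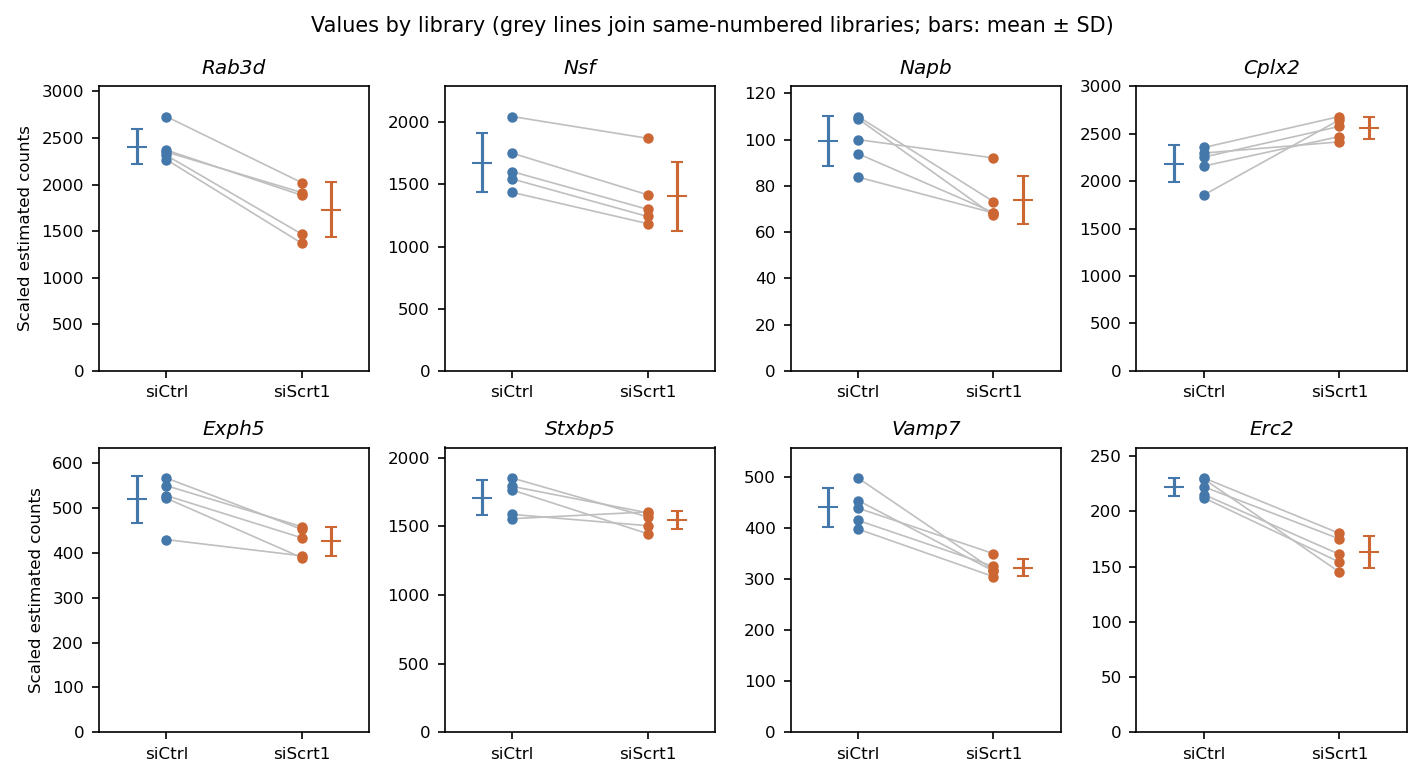
Scaled estimated counts (y axes from 0) of 8 genes in each siCtrl (blue) and siScrt1 (orange) library, with grey lines between libraries of the same number and the mean ± SD beside the points (n = 5 a group). Rab3d, Vamp7 and Erc2 separate the groups downward and Cplx2 upward, while Nsf overlaps but falls along all 5 grey lines.

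The other Rab3 genes had differences close to 0, none past the threshold. Rab3a, the main neuronal form, had 1210, 1068, 1470, 1124 and 1165 scaled counts in siCtrl and 1282, 1493, 1611, 1045 and 1043 in siScrt1. Rab3b had 830, 827, 1184, 912 and 1078 in siCtrl and 911, 1119, 1098, 834 and 895 in siScrt1. Rab3c had 1085, 598, 793, 876 and 796 in siCtrl and 1056, 695, 889, 888 and 712 in siScrt1. All 3 overlapped between the groups, with log2 fold changes of 0.087, 0.013 and 0.040.

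Rab3d made up 18.9 ± 1.40% of the summed Rab3 TPM in siCtrl (17.7 to 21.4%) and 14.0 ± 0.567% in siScrt1 (13.2 to 14.6%), and these ranges did not overlap. Rab3a went from 28.7 ± 1.30 to 31.5 ± 2.22%, Rab3b from 28.4 ± 2.92 to 29.6 ± 2.42% and Rab3c from 24.0 ± 3.75 to 24.9 ± 3.67%, each with overlap. The summed level of the 4 genes was 221 ± 22.0 TPM in siCtrl and 216 ± 30.2 in siScrt1. The siScrt1 libraries D and E, lowest in Rab3d, were also the lowest of their group in Rab3a and Rab3b, and their Rab3d shares were the lowest as well.

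**Figure D4:**
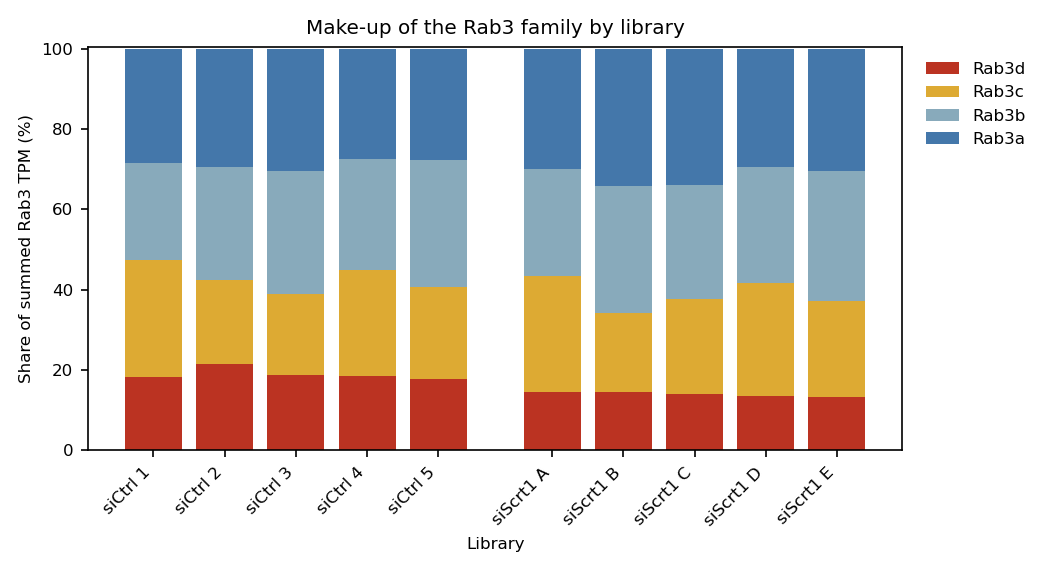
Share of the summed Rab3 TPM (%) taken by Rab3d, Rab3c, Rab3b and Rab3a in each of the 10 libraries, as stacked bars. The red Rab3d part is 17.7 to 21.4% in the siCtrl libraries and 13.2 to 14.6% in the siScrt1 libraries.

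Rab27a, which recruits effectors to insulin granules, had 1759, 1529, 1734, 1775 and 1760 scaled counts in siCtrl and 1792, 1554, 1823, 1683 and 1623 in siScrt1 (log2 fold change -0.014, interval -0.16 to 0.13). The libraries that share the number 2 were the lowest of both groups. Rab27b had 5.32 to 9.24 scaled counts in siCtrl and 3.37 to 12.3 in siScrt1, so that Rab27a made up 99.1 ± 0.253% and 99.0 ± 0.447% of the TPM of both.

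Of the Rab27 effectors, Exph5, exophilin-5, helps granules to reach the membrane. It had 521, 527, 429, 549 and 566 scaled counts in siCtrl and 389, 433, 393, 458 and 452 in siScrt1, lower in all 5 pairs by 8.47 to 25.5%. The groups overlapped through siCtrl 3, and the difference was -0.28 (SE 0.0868, interval -0.47 to -0.096, limma unadjusted p = 0.00625, adjusted p = 0.198, and 0.0683 with the block). On the log2(TPM + 1) scale it was -0.18. Its transcript ENSRNOT00000089686 went from 477, 501, 395, 494 and 529 scaled counts in siCtrl to 350, 345, 344, 373 and 405 in siScrt1 (-0.39, limma adjusted p = 0.116 over 17580 transcripts). This transcript took 88.5% of the TPM of Exph5 in siCtrl and 79.3% in siScrt1, and the other one had a log2 fold change of 0.60 (unadjusted p = 0.0577 in limma).

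Sytl4, granuphilin, which docks insulin granules, was the most abundant effector on the list at 212 ± 11.6 and 196 ± 13.8 TPM. It had 6055, 5809, 6569, 6144 and 5982 scaled counts in siCtrl and 5362, 5016, 5867, 5915 and 5650 in siScrt1, lower in all 5 pairs by 3.73 to 13.7% with an overlap of the groups (-0.14, interval -0.28 to 0.0027, limma adjusted p = 0.456). Myrip, which links Rab27 to myosin, was at 1039 ± 61.1 and 953 ± 130 scaled counts, and Sytl5 at 549 ± 103 and 543 ± 136. Mlph, the melanosome effector, had 2.13 to 12.6 scaled counts in any library.

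The Rab3 effectors and scaffold proteins had positive values, none of which passed the test. Pclo, piccolo, a calcium-sensing scaffold, had 9983, 8747, 6148, 10516 and 10525 scaled counts in siCtrl and 10674, 8798, 10801, 10945 and 11308 in siScrt1, higher in all 5 pairs, by as little as 0.59% and as much as 75.7% in the pair numbered 3 (0.22, interval -0.081 to 0.51, limma adjusted p = 0.602). Rph3al, the Rab3 effector Noc2, was at 1885 ± 178 and 2049 ± 239 scaled counts. Rims2 was at 663 ± 75.8 and 716 ± 52.1, Rimbp2 at 2510 ± 382 and 2650 ± 204, and the cyclic AMP sensor Rapgef4, Epac2, at 1127 ± 93.4 and 1144 ± 120. The log2 fold changes of these 4 lay between 0.019 and 0.12.

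The granule proteins differed by less than the test could call, with 2 positive and 3 negative values and a median of -0.032 (-0.21 to 0.12). Scg2, a granin that helps to form granules, had 128045, 118269, 109303, 124564 and 105976 scaled counts in siCtrl and 130400, 120823, 102826, 132052 and 113190 in siScrt1. Its difference of 0.030 (interval -0.25 to 0.31) changed sign when siCtrl 5, siScrt1 A or siScrt1 D was left out. Scg3, which ties granins to the granule membrane, had 28273, 32731, 33600, 25572 and 25522 in siCtrl and 26194, 27972, 28581, 22537 and 20721 in siScrt1. It was lower in all 5 pairs by 7.35 to 18.8%, with overlap (-0.21, interval -0.47 to 0.048, limma adjusted p = 0.551, and 0.130 with the block), and the difference was -0.14 without siScrt1 E.

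The receptor-like granule membrane proteins Ptprn and Ptprn2 varied between libraries of a group. Ptprn had 28212, 22433, 37662, 24257 and 23649 scaled counts in siCtrl and 27908, 34246, 37012, 24839 and 23656 in siScrt1 (0.12, interval -0.23 to 0.47). Leaving out 1 library moved this value to 0.034 without siScrt1 C, 0.057 without siCtrl 2, 0.062 without siScrt1 B and 0.077 without siCtrl 5, and to 0.18, 0.20 and 0.24 without siScrt1 D, siScrt1 E and siCtrl 3. Ptprn2 had 14665, 15170, 18691, 16324 and 17094 in siCtrl and 14132, 16299, 17572, 15504 and 16536 in siScrt1. Both were highest in siCtrl 3 and siScrt1 C, which share a number. Vgf, a granin-like precursor of secreted peptides, was at 193 ± 49.2 and 193 ± 75.1 scaled counts.

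The exocyst subunits had 2 negative values. Exoc3 had 525, 636, 618, 598 and 581 scaled counts in siCtrl and 552, 577, 602, 611 and 594 in siScrt1 (-0.0084, interval -0.15 to 0.14). Exoc6 had 335, 386, 322, 314 and 334 in siCtrl and 314, 325, 314, 285 and 293 in siScrt1, lower in all 5 pairs by 2.71 to 15.9% (-0.14, limma adjusted p = 0.537). The groups overlapped for both.

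At the level of transcripts, 65 of the 67 models of these genes had reads (an average of at least 0.001 per library) and 63 were tested. None was called (0 at adjusted p under 0.05 in limma, beside 0.415% of all transcripts, with 0.116 the lowest adjusted p), and 6 had an unadjusted p under 0.05, 9.52% beside 9.32% of all transcripts. Among all 63 tested, siCtrl and siScrt1 values were fully separated in 3 transcripts, 1 each of Cplx2, Rab3d and Sytl4, beside 2.53% of all transcripts. For 30 of the 44 genes the annotation holds 1 transcript, so no change of isoform could be seen in them. The short-read estimates split reads between transcripts of a gene and are less certain than the sums per gene.

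A wider list of 116 other genes of exocytosis and other membrane traffic, of which 99 were tested, was set beside these values. Like the members, the list was chosen with earlier results of these data known, so its shares are not an independent background. There, 2 genes passed the threshold, both lower in siScrt1, beside 0.680% of all genes called lower, and 18 had an unadjusted p under 0.05, 18.2% beside 11.1% of all genes (13 lower, beside 5.75% of all genes, and 5 higher). Vamp7, a vesicle SNARE of late endosomes and lysosomes, had 398, 415, 498, 454 and 439 scaled counts in siCtrl and 305, 325, 318, 316 and 350 in siScrt1, with no overlap (-0.45, SE 0.0766, interval -0.61 to -0.28, limma adjusted p = 0.0134). Erc2, an active zone scaffold of the ELKS family that binds Rims2 and piccolo, had 222, 215, 230, 212 and 229 in siCtrl and 175, 161, 180, 154 and 145 in siScrt1, again with no overlap (-0.45, SE 0.0860, limma adjusted p = 0.0274). Without siScrt1 D neither was called (adjusted p = 0.0527 and 0.0953 in limma), and Erc2 also missed the threshold without siCtrl 1, 3, 4 or 5 or siScrt1 B or E.

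By role, 2 values were positive and 21 negative among the other SNAREs, 10 and 6 in SNARE regulation, 12 and 20 among Rabs and effectors, 4 and 5 in the exocyst and 12 and 7 in granule assembly, beside 6601 and 6340 over all genes. With the library number as a block, the wider list held 4 calls of 99 in place of 2, while calls over all genes went from 136 to 259, or 2.00%. The added genes were Scfd1, the Sec1-like partner of SNAREs between endoplasmic reticulum and Golgi, which was lower, and Stxbp4, a binding partner of Stx4, which was higher. Scfd1 went from 2525 ± 266 to 1798 ± 319 scaled counts (-0.50, limma adjusted p = 0.0579, and 0.00521 with the block), and Stxbp4 went from 166 ± 26.7 to 241 ± 29.5 (0.54, adjusted p = 0.0651 in limma, and 0.0178 with the block). As with Rab3d, the lowest Scfd1 values, 1545 and 1489, were in siScrt1 D and E. For both genes the same-numbered siCtrl 4 and 5 were also the lowest controls, at 2229 and 2339 for Scfd1. No gene of the granule assembly list had an unadjusted p under 0.05 in limma (0 of 19), beside 11.1% of all genes.

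Scratch proteins bind E-boxes with the core CAGGTG, so RefSeq promoter windows on GRCr8, from 250 bases before to 50 after each gene start, were searched for these letters on both strands (CACCTG on the other). Windows were at hand for 38 of the 44 genes, and Snap25, Vamp3, Doc2b, Rims2, Rimbp2 and Mlph had none, nor did Vamp7. The letters were in 15 of 39 windows, 38.5%, beside 18.8% of all 33469 windows and 18.6% of the 10505 windows of genes tested, and the longer form CAACAGGTG, which contains the core, was in 0 of 39, beside 0.203%. The windows around the match are shown for Rab3d and Napb, the tested genes on the list with the most negative differences, for Erc2, called lower, and for Scg2, the most abundant gene, with the E-box letters in capitals, 5′ to 3′ on the strand of the gene:
Rab3d, chr8:28725285-28725314, minus strand: cctcgcccccgcCACCTGggcggagccggc
Napb, chr3:156632423-156632452, minus strand: cctgcgtattggCACCTGctagagggagga
Erc2, chr16:2819266-2819295, plus strand: ggattgggaagtCAGGTGcttcaggcagga
Scg2, chr9:88257078-88257107, minus strand: tgctacataagaCAGGTGgcgtaagcatgc

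The matched letters begin 35 bases before the annotated start of Rab3d, 22 before that of Napb, 234 before that of Erc2 and 229 before that of Scg2. The windows of Cplx2, Nsf, Exph5 and Stxbp5 did not hold these letters, and those of Vamp2, Rab27a, Rab3b and Pclo did. Of the genes with the letters, Erc2 was called lower, and Rab3d and Napb were lower without passing the threshold in the fit by group alone. Exoc6, Myrip, Unc13b, Vgf, Stxbp2 and Rab27a also had negative differences (-0.14 to -0.014). Differences were positive in Cadps2 (0.33), Pclo (0.22), Vamp2 (0.15), Rph3al (0.12), Scg2, Rapgef4 and Rab3b (0.030 to 0.013). A match is a description of the letters and not of binding, and its relation to the differences was not tested.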

How the data were processed

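RNA-seq libraries (TruSeq, single-end reads of 151 nt) of siCtrl and siScrt1 β-cells (5 each) were compared. Per the methods and the submitters' processing notes, the authors trimmed reads with Trimmomatic, checked them with FastQC, quantified Rnor6 transcripts with kallisto and scaled them with sleuth (versions not given in the sources used here). The deposited estimated counts and TPM per transcript are therefore a signal scaled between libraries, not raw counts. Groups came from the labels.

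Scaled counts were summed per Ensembl gene. Dividing each library by the scaled value of 1 read (0.842 to 1.26) gave recovered reads, and 76.2% of gene values above 0 were whole within 0.01 reads, 48.8% of transcript values within 0.001. Genes with at least 10 reads (scaled to median library size) in 5 or more libraries, and 15 summed over all, were tested, and transcripts with at least 5 reads in at least 47% of libraries. The test was limma 3.58.1 in R 4.3.3 (lmFit, eBayes with trend) on log2(scaled count + 0.5), by group, with Benjamini-Hochberg adjustment over all features tested and a threshold of 0.05. Fold changes are on that scale, which understates changes of low genes. In simulations of 200 genes changed 2-fold among 12941, the gene fit recovered 78.5%, and the transcript fit 64.5% among 17580. Of the calls, 1.88% in the gene fit and 6.52% in the transcript fit were of unchanged features. All differences of the member genes were smaller than 2-fold, so these rates do not give the recovery of changes as small as theirs. The numbers of the deposited table were taken to pair the libraries, although the labels give letters, not numbers, to siScrt1. Deviations of same-numbered libraries from their group means correlated over genes by 0.131 to 0.351 in the 5 pairs. For number 2, at 0.131, siScrt1 B correlated more with a control of another number. Between libraries of different numbers, siCtrl 3 reached 0.167. A fit with the number as a block was the alternative.

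The member genes, the wider list and the markers were chosen with earlier results of these data known. Named by rule with all library values were, in each role, the most abundant gene, the 2 with the smallest p (1 for the exocyst) and the members of paralog families, and from the wider list the called genes. Nsf, Stxbp5, Exph5 transcripts, Pclo, Scfd1 and Stxbp4 were outside this rule and were added after their values were seen. Alternatives were other scalings, filters, pseudocounts, TPM, limma-voom, the block and leaving out libraries. Promoter letters were counted in RefSeq windows (GRCr8).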

Additional observations from a re-analysis of the deposited data

Results flagged for a closer look

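In 7 of the 94 groups of 5 libraries examined (the 44 listed genes with values, Vamp7, Erc2 and Scrt1, in siCtrl and in siScrt1), 1 library stood apart from the others by more than Dixon's 95% critical value, where chance gives about 1 in 20, or about 5. The highest library was siCtrl 3 for Rab3d, at 2731 scaled counts with the others at 2269 to 2371, and for Vamp8, at 765 with the others at 550 to 603. For Unc13a it was siCtrl 1, at 3210 with the others at 2212 to 2243. Napb in siScrt1 A, at 92.1, lay above the 67.3 to 73.2 of the other siScrt1 libraries, and Doc2b in siScrt1 D, at 20.7, above 6.31 to 10.1. The lowest library stood apart for Rab27a in siCtrl 2, at 1529 with the others at 1734 to 1775, and for Pclo in siScrt1 B, at 8798 with the others at 10674 to 11308.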

How the results depend on the processing

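Called members numbered 0, and 1 (Rab3d) with a mean of at least 5 CPM, with a pseudocount of 5 or without siScrt1 C, and 2 (Rab3d and Nsf) with the replicate block. Leaving out 1 library gave 0 to 1. Rab3d was called in 4 of 21 alternatives, at -0.55 to -0.49, and lay at -0.55 to -0.41 over all 21, and Nsf in 1 of 21. Called genes of the wider list numbered 2, and 3 with a mean of at least 5 CPM (Scfd1 added). They numbered 4 with the block (Scfd1 and Stxbp4 added), 0 with both libraries numbered 4 left out, and 0 to 3 with 1 library left out. Scfd1 was also called without siScrt1 A and without both libraries numbered 1, where Erc2 was not called in the latter. Vamp7 was called in 19 of 21 alternatives (limma adjusted p 0.0101 to 0.143) and Erc2 in 12 of 21 (0.0212 to 0.170). Called transcripts of members numbered 0 to 1 with 1 library left out, the 1 being of Exph5 without siCtrl 3. Scrt1 lay at -2.26 to -1.80 with 1 library left out and at -1.82, no longer called, without the libraries numbered 4. Vamp8 changed sign without siCtrl 3 (0.0018; range with 1 library left out -0.12 to 0.0018), and Scg2 without siCtrl 5 (-0.0058), siScrt1 A (-0.0023) or siScrt1 D (-0.0068; range -0.0068 to 0.083). The cause of these shifts was not tested. The paired fit left every other call of a named gene as it was, and 336 single-gene values kept direction and side of the threshold under their alternatives. Doc2b, Rab27b and Mlph had too few reads to be compared at this depth.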
